A study of Mus musculus with 4 samples.

Results

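The genes described here encode the aminoacyl-tRNA synthetases, the enzymes that join each amino acid to its tRNA before the ribosome can use it. The 36 members were listed by name and all 36 were found among the 23420 genes of the deposited table. They were split into 20 genes of the cytosolic enzymes and 16 genes of the mitochondrial enzymes, whose symbols end in 2. Mammalian cells translate in both compartments, and in most cases a separate nuclear gene encodes the enzyme of each. Gars and Kars, the glycyl- and lysyl-tRNA synthetases, serve both compartments from a single gene, whereas glutamate and proline are charged in the cytosol by a single fused protein, EPRS. Several cytosolic enzymes sit together in the multisynthetase complex, held by non-enzymatic scaffold proteins, and many cytosolic synthetase genes are known targets of ATF4, the transcription factor of the amino acid response. Pachytene spermatocytes are meiotic cells that store and translate large amounts of mRNA ahead of the divisions and spermatid development.

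RNA-seq was performed on pachytene spermatocytes sorted by FACS from the testes of wild-type C57BL/6 mice of 23 weeks of age. The sorted cells were cultured for 24 h with DMSO (Ctrl, 2 libraries) or with 10 μM AZ20, an inhibitor of the checkpoint kinase ATR (AZ20, 2 libraries), and each library was made from 15000 cells. Both groups were wild type and both had been sorted and kept ex vivo, so neither stands for freshly isolated cells. The labels give the culture temperature as 34 °C and the methods as 32 °C. Cells of a mouse were divided between DMSO and AZ20, and the libraries of the same replicate number were therefore taken as a pair. The methods do not state that the replicate numbers match in this way. The question asked of the synthetase genes was whether their mRNA differed between AZ20 and Ctrl.

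Levels are given as TPM, the transcripts of a gene scaled to a fixed total for each library, which are scaled per length and may be compared between genes. Reads assigned to genes, as recovered from the TPM values, numbered 13997374 and 15885651 for the Ctrl libraries and 20297612 and 18584190 for the AZ20 libraries. All 11 markers of pachytene spermatocytes were expressed, with a summed level of 13050 and 13160 TPM in Ctrl and 13330 TPM in each AZ20 library. Summed over the respective marker lists, spermatogonia, macrophages and the Sertoli, Leydig and peritubular myoid cells of the testis each gave under 5 TPM in every library. The Sertoli cell sum was 0.0529 and 0.0463 TPM in Ctrl and 0.549 and 0.651 TPM in AZ20, with no overlap. Of its 5 markers, 2 were at 0 in all libraries and 0 had a mean above 1 TPM in either group. The AZ20 sums came from few reads, mainly 11 and 0 of Clu and 3 and 16 of Cldn11. The 5 round spermatid markers (Prm1, Prm2, Tnp1, Tnp2 and Acrv1) were summed at 353.7 and 143.9 TPM in Ctrl and at 751.0 and 242.7 TPM in AZ20. All 5 had a higher mean with AZ20 (median log2 change of 0.87), the groups overlapped for each of them, and the smallest limma adjusted p was 0.615. Within the replicate pairs, 4 of the 5 were higher with AZ20 in both, against 36.1% of all expressed genes. The part of either list in the results for the synthetase genes was not tested. In bulk RNA, fewer cells of a type and less RNA per cell cannot be told apart.

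All 20 cytosolic genes had a mean above 1 TPM in Ctrl or AZ20 and were tested. Their levels in Ctrl spanned from 7 to over 300 TPM. The most abundant was Dars, which encodes the aspartyl enzyme of the multisynthetase complex, at 287.2 and 326.0 TPM in Ctrl and 264.2 and 278.8 TPM in AZ20. Kars followed at 146.6 and 150.0 TPM in Ctrl and 159.2 and 142.1 TPM in AZ20. Nars (asparagine) and Farsb (the beta subunit of the phenylalanine enzyme) had Ctrl means of 110.4 ± 8.16 and 109.7 ± 6.38 TPM (SD, n = 2), a difference smaller than the spread of either. At the other end, Vars (valine) was the least abundant, at 7.79 and 6.20 TPM in Ctrl and 5.46 and 6.62 TPM in AZ20. Of the mitochondrial genes, 11 of 16 were tested. Rars2 (arginine) was the most abundant of these, at 202.5 and 183.1 TPM in Ctrl and 189.6 and 220.2 TPM in AZ20, and Yars2, Fars2 and Lars2 followed with Ctrl means of 76.5, 60.9 and 52.9 TPM. The remaining 7 tested mitochondrial genes had Ctrl means of 9.18 TPM (Hars2) or less.

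The 5 mitochondrial genes that did not reach the filter were Cars2, Pars2, Sars2, Vars2 and Wars2. Cars2 was measured at 0.268 and 0.562 TPM in Ctrl and at 1.004 and 0.906 TPM in AZ20. Pars2 had 1 and 9 reads in Ctrl and 13 and 12 reads in AZ20, and Vars2 had 23 and 13 reads in the Ctrl libraries against 38 and 45. Sars2 was uneven within Ctrl, with 32 and 4 reads against 15 and 9, and Wars2 was uneven within AZ20, with 16 and 7 reads in Ctrl against 5 and 38. These 5 genes are left out of every count of tested members. They were fitted in the alternative without the filter, in which 0 of the 16 mitochondrial genes reached an unadjusted limma p under 0.05.

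**Figure D1:**
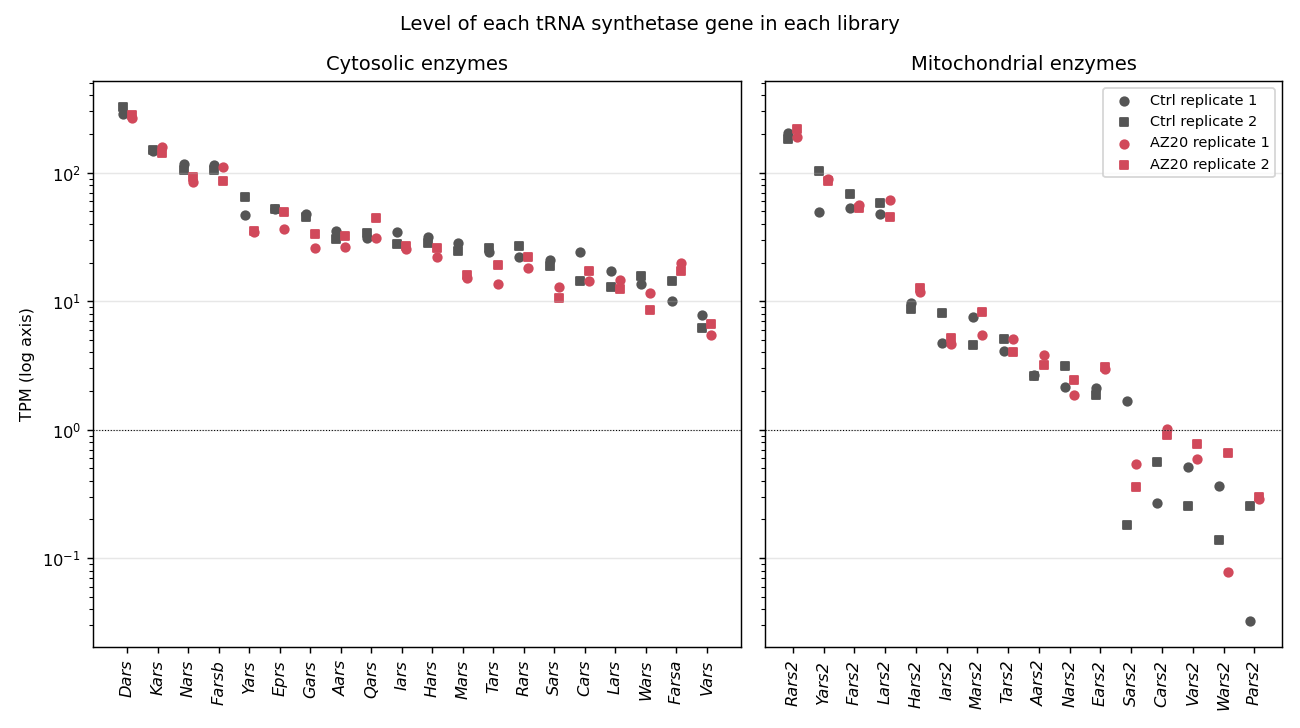
Level of each of the 36 synthetase genes in each library, in TPM on a log axis, with Ctrl in grey, AZ20 in red, circles for replicate 1 and squares for replicate 2, and a dotted line at 1 TPM. All 20 cytosolic genes lie above 5 TPM in every library, whereas 5 mitochondrial genes have group means of 1 TPM or less.

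The difference between AZ20 and Ctrl was fitted by limma to log2(TPM + 1) for all 10316 expressed genes, a scale that understates the change of low genes. A call needed a 2-fold change or more and an adjusted p (Benjamini-Hochberg, over all tested genes) below 0.05. Of the synthetase genes 0 were called, with limma or with limma-voom on the recovered reads. Among all tested genes, 2.28% were called higher (235 genes) and 0.0485% were called lower (5 genes), or 424 and 23 genes with the replicate pair as a block. The smallest limma adjusted p was 0.276 among the cytosolic genes and 0.722 among the mitochondrial genes. With the replicate pair as a block, the smallest limma adjusted p was 0.106 (Mars) and 0.638 (Hars2), respectively. The limma adjusted p-values given for single genes below are from the fit without the block. With 2 libraries against 2, an exact two-sided permutation test of a single value cannot go below p = 0.333.

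Below the threshold, the cytosolic genes were mostly lower with AZ20. The log2 change was below 0 for 17 of 20 cytosolic genes, against 40.2% of all tested genes, and 14 were lower in both replicate pairs, against 19.4%. Both AZ20 libraries lay below both Ctrl libraries for 12 of the 20 (60.0%), compared with 11.7% of all tested genes. Farsa was the single cytosolic gene with both AZ20 libraries above both Ctrl libraries, an order found in 26.4% of all tested genes, and the groups overlapped for the other 7. The median log2 change of the 20 was -0.26, at -0.43 within replicate pair 1 and -0.15 within replicate pair 2, while the median over all tested genes was 0.07 with quartiles of -0.12 and 0.32. Summed over the 20 genes, the level was 1112 and 1129 TPM in Ctrl (1121 ± 11.4, SD, n = 2) and 945.7 and 978.1 TPM in AZ20 (961.9 ± 22.95, SD, n = 2), so that the groups did not overlap. The members share their libraries and are not replicates of the treatment.

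An unadjusted p under 0.05 was reached in the lower direction by 5 cytosolic genes (Mars, Sars, Yars, Gars and Tars) out of 20, against 1.13% of all tested genes. In the higher direction it was reached by Farsa alone, against 8.03% of all tested genes. In each of the 5 lower genes the groups did not overlap, which is not a separate result, since the p-values come from the same libraries.

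**Figure D2:**
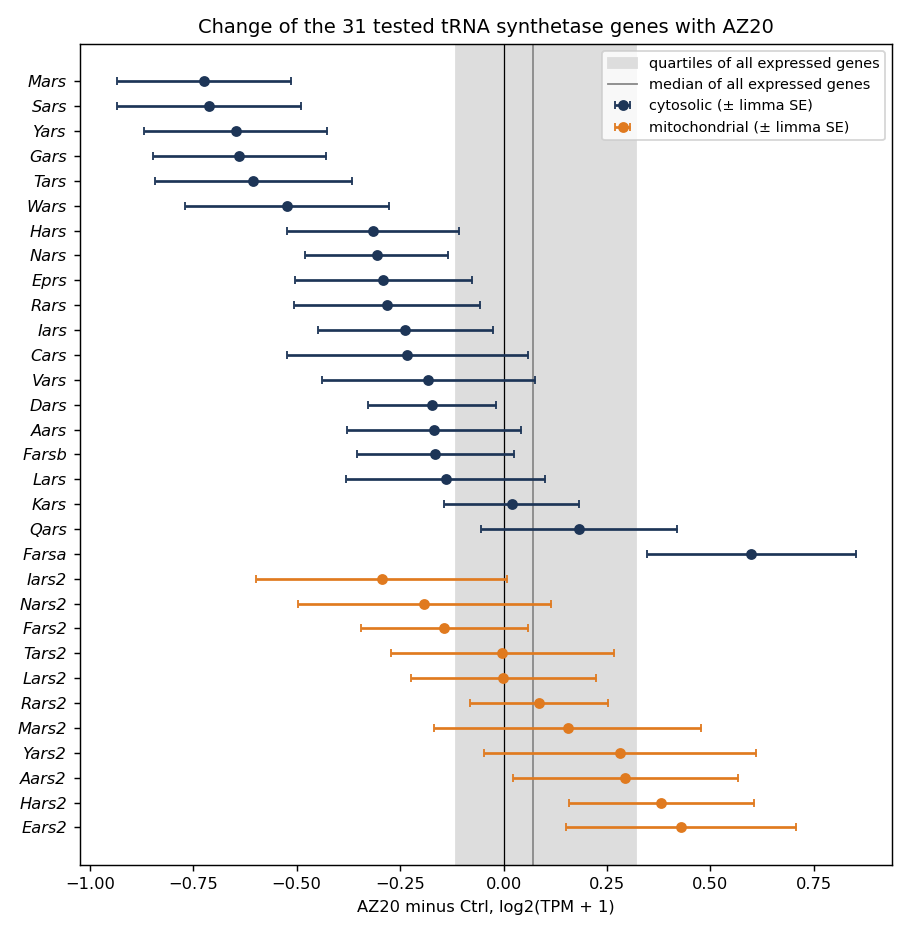
Change of each of the 31 tested synthetase genes, as AZ20 minus Ctrl on the log2(TPM + 1) scale with the limma standard error, cytosolic genes in blue and mitochondrial genes in orange, with the quartiles and median of all tested genes in grey. Of the cytosolic genes, 17 of 20 lie below 0, whereas the mitochondrial genes lie on both sides (6 above and 5 below).

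Mars, the methionyl-tRNA synthetase and an enzyme of the multisynthetase complex, lies on the minus strand at chr10:127296221-127311786 (GRCm38). Its level was 28.5 and 24.6 TPM in Ctrl and 15.2 and 16.1 TPM in AZ20, from 852 and 840 reads and 653 and 626 reads. Both AZ20 libraries were well below both Ctrl libraries, and the AZ20 mean was 0.589 of the Ctrl mean. The log2 change was -0.72 (SE 0.210, limma adjusted p = 0.276). Exons of Mars share 68 bases with Ddit3 on the opposite strand, and a strand setting of the counting is not given in the sources used here. Ddit3, which encodes a stress-response transcription factor, was measured at 416.7 and 446.4 TPM in Ctrl and 524.0 and 452.9 TPM in AZ20 (log2 change of 0.18, limma adjusted p = 0.827).

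Sars, the cytosolic seryl-tRNA synthetase, lies on the minus strand at chr3:108424865-108445209. It was measured at 20.9 and 18.8 TPM in Ctrl and at 12.9 and 10.7 TPM in AZ20. The AZ20 mean was 0.593 of the Ctrl mean, with a log2 change of -0.71 (SE 0.223, limma adjusted p = 0.340). The change was of similar size in both replicate pairs, at -0.66 and -0.77.

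Yars, the tyrosyl-tRNA synthetase, lies on the plus strand at chr4:129189760-129219607. Its level was 46.7 and 64.6 TPM in Ctrl and 34.6 and 34.9 TPM in AZ20. The Ctrl libraries differed from each other by more than the AZ20 libraries did, and the difference was wider in the second pair (-0.87) than in the first (-0.42). Its log2 change was -0.65 (SE 0.221, limma adjusted p = 0.395).

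Gars, which supplies glycyl-tRNA synthetase to the cytosol and the mitochondria, lies on the plus strand at chr6:55038007-55079500. It was measured at 47.6 and 45.4 TPM in Ctrl and at 26.0 and 33.4 TPM in AZ20. Here the AZ20 libraries were the more spread, and the log2 change was -0.64 (SE 0.210, limma adjusted p = 0.378). Kars, the other gene serving both compartments, had overlapping groups and a log2 change of 0.02 (SE 0.163, limma adjusted p = 0.988), and its sign was negative with median-of-ratios scaling, quantile normalization and voom.

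Tars, the cytosolic threonyl-tRNA synthetase, lies on the minus strand at chr15:11382301-11399665. Its level was 24.2 and 26.05 TPM in Ctrl and 13.6 and 19.2 TPM in AZ20. The log2 change was -0.60 (SE 0.239, limma adjusted p = 0.506), and was larger in the first pair (-0.79) than in the second (-0.42).

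With a library left out, its group holds 1 library, which is assumed to vary like the other group, and the spread comes from that other group alone. Under these fits the count of 5 became 1 without AZ20 replicate 1 (Sars) or without Ctrl replicate 1 (Yars), 2 without Ctrl replicate 2 (Mars and Sars) and 3 without AZ20 replicate 2 (Mars, Gars and Tars). All 5 log2 changes stayed negative, between -0.88 and -0.37, when any library was left out. When limma-voom was run on the recovered reads with the replicate number as a block, Mars, Sars and Yars reached adjusted p = 0.0326, 0.0366 and 0.0387 at log2 changes of -0.85, -0.85 and -0.76, which are under 2-fold.

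Several cytosolic synthetase genes carry the C/EBP-ATF response element, the DNA sequence bound by ATF4 and its partners, near their start. The letters TGATGNAA (TTNCATCA on the opposite strand, both strands searched, with no other motif searched) were therefore looked for in the RefSeq promoter windows (GRCm38.p6), which run from 250 bases before to 50 bases after a start site. Windows were matched for 27 members, 13 cytosolic and 14 mitochondrial. Not matched were Cars, Hars, Lars, Nars, Rars, Vars, Wars, Hars2 and Pars2, and Mars was matched under its RefSeq symbol. The letters were found in 5 cytosolic windows (Aars, Gars, Iars, Tars and Yars) and in 0 mitochondrial windows. They were found for 4.51% of all 27025 genes with a window and for 2.85% of the 7638 tested genes with a window. The matches are given 5′ to 3′ in the direction of transcription because 3 of the 5 genes with the lowest changes hold one, with the matched letters in capitals. Measured from the first base of the GENCODE gene, the RefSeq start site lies 698 bases downstream for Aars, 143 for Yars, 30 for Iars and 7 for Tars, and 6 bases upstream for Gars. Among genes without a match, the largest measured distances downstream were 5229 bases for Tars2, 299 for Qars, 231 for Fars2 and 177 for Ears2. The windows of Tars2 and Qars, and that of Aars, lay wholly inside the GENCODE gene (300 of 300 bases). These 3 windows therefore do not cover its start. The windows of Fars2 and Ears2 had 281 and 227 of 300 bases inside the gene and do cover its start. The windows of Dars, Kars and Sars did not end in a GENCODE transcript of the gene.

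Yars, chr4:129189866-129189932, plus strand, match from base 4 to base 11 after the start site: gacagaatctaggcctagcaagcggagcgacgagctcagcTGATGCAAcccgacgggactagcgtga

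Gars, chr6:55037931-55038018, plus strand, match ending 23 bases before the start site: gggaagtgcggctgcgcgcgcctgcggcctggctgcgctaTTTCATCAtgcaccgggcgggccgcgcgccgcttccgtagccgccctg

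Tars, chr15:11399629-11399713, minus strand, match ending 8 bases before the start site: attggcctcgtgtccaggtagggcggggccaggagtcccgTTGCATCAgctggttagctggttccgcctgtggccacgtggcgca

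Iars, chr13:49682097-49682159, plus strand, match from base 8 to base 15 after the start site: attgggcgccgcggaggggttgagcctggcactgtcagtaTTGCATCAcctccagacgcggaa

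Aars, chr8:111033690-111033777, plus strand, match ending 105 bases before the start site: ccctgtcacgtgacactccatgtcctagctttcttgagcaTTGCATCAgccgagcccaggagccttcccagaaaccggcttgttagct

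Aars, chr8:111033811-111033871, plus strand, second match, from base 10 to base 17 after the start site: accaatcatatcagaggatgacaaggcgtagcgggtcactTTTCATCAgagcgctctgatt

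Mars and Sars, with the lowest changes of all members, held no match in their windows, and their start regions are shown for contrast, with the 50 bases before the RefSeq start site in lower case and the first 30 bases after it in capitals. The RefSeq start of Mars is the first base of its GENCODE gene. That of Sars lies 50 bases upstream of its GENCODE gene, so the whole Sars window lies outside the gene given above.

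Mars, chr10:127311757-127311836, minus strand: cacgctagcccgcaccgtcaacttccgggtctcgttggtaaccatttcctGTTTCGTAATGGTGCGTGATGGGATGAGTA

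Sars, chr3:108445230-108445309, minus strand: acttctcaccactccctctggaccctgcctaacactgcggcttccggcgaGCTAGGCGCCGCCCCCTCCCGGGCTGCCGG

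The 5 cytosolic genes with the letters had a median log2 change of -0.60, all 5 were lower, and for 4 of them the groups did not overlap, against 40.2% of all tested genes below 0 and 11.7% lower with no overlap. The 8 with a window but without the letters (Dars, Eprs, Farsa, Farsb, Kars, Mars, Qars and Sars) had a median of -0.17, with 5 lower and 3 higher. With no overlap between the groups, 4 of these 8 were lower and 1 (Farsa) was higher. Among the 7 without a window the median was -0.28, all 7 were lower, and for 4 of them the groups did not overlap. The ranges of the first 2 groups overlapped widely, since Mars and Sars without the letters were lower than any gene with them, and Aars with 2 matches had a log2 change of only -0.17. A match is a run of letters and not evidence that a factor binds there, and its absence says only that these letters are not in the window.

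**Figure D3:**
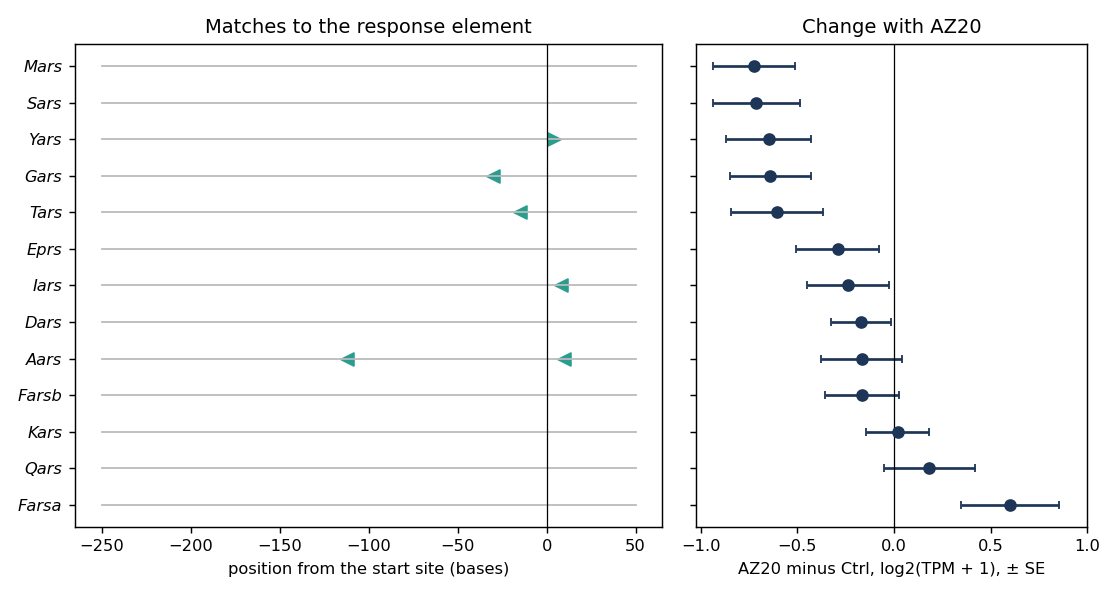
Left, position of each match to the response element in the 300-base promoter window of the 13 cytosolic genes with a window, in bases from the start site, with triangles pointing along the strand of the match. Right, the change of the same genes, as AZ20 minus Ctrl on the log2(TPM + 1) scale with the limma standard error. Genes with and without a match are found among the 5 lowest.

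Grouped by known regulation, the 12 cytosolic synthetase genes listed as ATF4-responsive (Aars, Cars, Eprs, Gars, Iars, Lars, Mars, Nars, Sars, Tars, Wars and Yars) were all lower, with a median log2 change of -0.42 and no overlap between groups for 9 (all tested genes: 40.2% below 0 and 11.7% lower with no overlap). Their summed level was 461.5 and 437.4 TPM in Ctrl and 315.9 and 353.9 TPM in AZ20. The other 8 cytosolic genes had a median of -0.17, with 5 lower, and no overlap in the lower direction for 3. This list was drawn up with the values of ATF4 targets in these libraries already known, and so is not independent evidence of a direction. Of the regulators and other targets of the amino acid response, 7 of 10 were tested, with a median log2 change of -0.10, and 0 were called. Psat1, an enzyme of serine synthesis and the single gene of these with an unadjusted limma p under 0.05, was the lowest at 19.3 and 22.5 TPM in Ctrl and 11.8 and 11.7 TPM in AZ20 (log2 change of -0.77, limma adjusted p = 0.245). Atf4 itself was the highest, at 28.0 and 31.7 TPM in Ctrl and 38.8 and 40.02 TPM in AZ20 (log2 change of 0.39, limma adjusted p = 0.655), with no overlap between the groups. The mRNA level of Atf4 does not measure its protein, which is largely set by translation.

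The 8 enzymes of the complex (Eprs, Iars, Lars, Mars, Qars, Rars, Kars and Dars) had a median log2 change of -0.20, with 6 lower and no overlap in the lower direction for 5 (11.7% of all tested genes). The 12 enzymes outside it had a median of -0.31, with 11 lower and no overlap in the lower direction for 7, and the difference between these lists was not tested. The 3 scaffold genes had a median of 0.03. Aimp2 was the lowest of these at 28.1 and 41.0 TPM in Ctrl and 33.4 and 19.2 TPM in AZ20, with overlapping groups. Eef1e1, which encodes the scaffold AIMP3, was the highest at 215.8 and 234.7 TPM in Ctrl and 284.6 and 299.5 TPM in AZ20 (log2 change of 0.37, limma adjusted p = 0.529). The 2 structural classes of synthetase, which differ in the fold of their catalytic domain, had equal medians at this precision, with -0.24 for the 9 class I genes and -0.24 for the 10 class II genes. Eprs, which carries a domain of each class, was at -0.29.

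Cytosolic phenylalanyl-tRNA synthetase is built from alpha subunits encoded by Farsa and beta subunits encoded by Farsb. Farsa was the highest of the cytosolic genes, at 9.97 and 14.3 TPM in Ctrl and 19.97 and 17.3 TPM in AZ20, from 184 and 301 reads and 531 and 416 reads. Its log2 change was 0.60 (SE 0.252, limma adjusted p = 0.543), and was larger in the first pair (0.93) than in the second (0.26). Its unadjusted p, which was under 0.05 with limma, was above 0.05 under 8 of the 10 alternatives that kept all libraries. Farsb was at 114.2 and 105.2 TPM in Ctrl and 109.8 and 86.8 TPM in AZ20, with overlapping groups and a log2 change of -0.16 (limma adjusted p = 0.876). The ratio of Farsb to Farsa was 11.45 and 7.37 in Ctrl and 5.50 and 5.01 in AZ20, so that the mRNAs of the subunits were less unequal in both AZ20 libraries. Qars, the glutaminyl enzyme of the complex, was the second highest, at 31.3 and 34.1 TPM in Ctrl and 30.9 and 44.7 TPM in AZ20. Its groups overlapped, and its log2 change of 0.18 (SE 0.236, limma adjusted p = 0.891) rested on AZ20 replicate 2, without which it was -0.08.

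Of the other cytosolic genes, Wars (tryptophan) had a log2 change of -0.52 (limma adjusted p = 0.619), with 13.7 and 15.8 TPM in Ctrl and 11.5 and 8.54 TPM in AZ20. Hars (histidine), Nars, Eprs, Rars and Iars had log2 changes between -0.32 and -0.24, and Dars was at -0.17, all without overlap of the groups. For Cars, Vars, Aars, Farsb and Lars, at -0.23 to -0.14, the groups overlapped. Cars (cysteine) was the least even of these, with 24.3 and 14.3 TPM in Ctrl and 14.4 and 17.1 TPM in AZ20, and its change was -0.71 in the first pair and 0.25 in the second. Reads of Aars cannot be fully separated from those of Exosc6, which shares 1326 exonic bases with it on the same strand, and those of Farsb, Hars and Yars overlap genes on the opposite strand (Sgpp2, Hars2 and C77080).

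**Figure D4:**
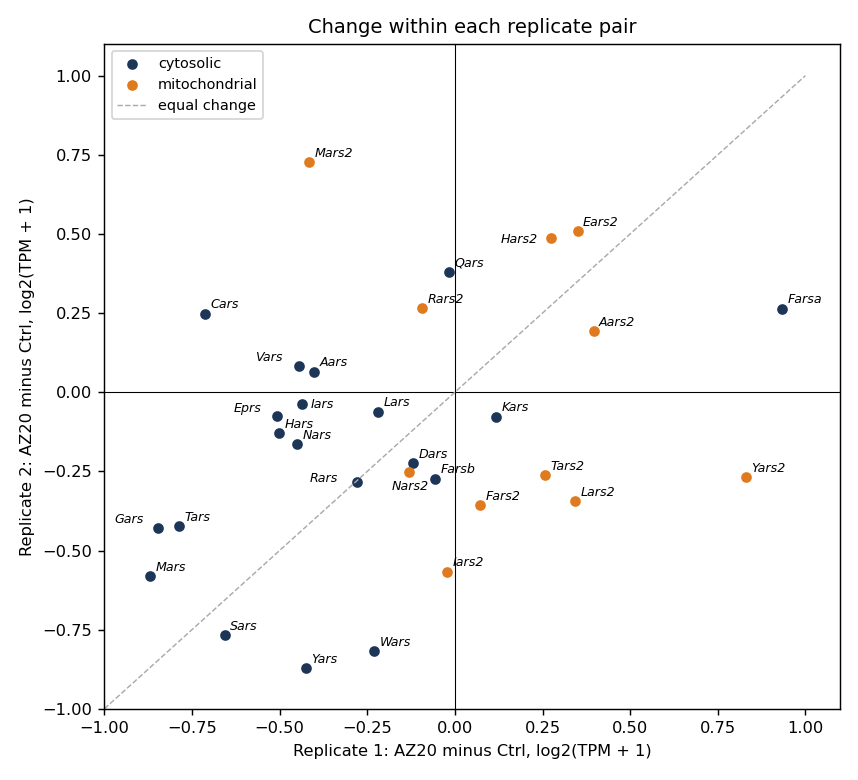
Change within each replicate pair, as AZ20 minus Ctrl on the log2(TPM + 1) scale, with the first pair on the horizontal and the second pair on the vertical axis, cytosolic genes in blue, mitochondrial genes in orange and a dashed line of equal change. The lower left area, where both pairs are lower, holds 14 of 20 cytosolic and 2 of 11 mitochondrial genes.

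The mitochondrial genes showed no shared direction. Of the 11 tested, 6 had a log2 change above 0 and 5 below, and 0 reached an unadjusted p under 0.05 with limma or with limma-voom. Both AZ20 libraries lay above both Ctrl libraries for 3 genes (Aars2, Ears2 and Hars2), against 26.4% of all tested genes, and below them for 0. Higher in both replicate pairs were 3 of 11, against 36.1% of all tested genes. The median log2 change was 0.09, at 0.26 in the first pair and -0.25 in the second, so the pairs differed in sign, and it was below 0 with quantile normalization and with voom. The summed level of the 16 genes was 389.1 and 448.4 TPM in Ctrl and 434.0 and 446.4 TPM in AZ20, with overlapping groups.

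Ears2, the mitochondrial glutamyl-tRNA synthetase, was the highest of them by change and the least abundant tested one in Ctrl. It was measured at 2.09 and 1.88 TPM in Ctrl and at 2.94 and 3.10 TPM in AZ20, from 39 and 40 reads and 79 and 75 reads. The log2 change was 0.43 (SE 0.278, limma adjusted p = 0.752). Hars2 was measured at 9.61 and 8.75 TPM in Ctrl and at 11.8 and 12.7 TPM in AZ20, with a log2 change of 0.38 (SE 0.224, limma adjusted p = 0.722). Hars2 lies head to head with Hars, with 195 exonic bases shared between the opposite strands, and the 2 genes differed in direction, at 0.38 and -0.32.

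At the low end, Iars2 (isoleucine) was measured at 4.73 and 8.11 TPM in Ctrl and at 4.64 and 5.15 TPM in AZ20, a log2 change of -0.29 (SE 0.304, limma adjusted p = 0.858). Its exons share 2034 bases with Rab3gap2 on the opposite strand. Nars2 (asparagine) was at 2.14 and 3.12 TPM in Ctrl and 1.87 and 2.46 TPM in AZ20, a log2 change of -0.19. Fars2 (phenylalanine) was at 53.5 and 68.4 TPM in Ctrl and 56.3 and 53.2 TPM in AZ20, a log2 change of -0.14. Tars2 (threonine) had nearly the same range in both groups, with 4.06 and 5.06 TPM in Ctrl and 5.05 and 4.05 TPM in AZ20. In all 4 the groups overlapped, and without Ctrl replicate 2 each of the 4 had a log2 change above 0. Yars2 (tyrosine) was the least even of the abundant ones, with 49.6 and 103.5 TPM in the Ctrl libraries against 89.1 and 85.7 TPM in AZ20. Its log2 change of 0.28 was -0.24 without Ctrl replicate 1. Aars2 was at 0.29, Mars2 at 0.16, Rars2 at 0.09 and Lars2 at 0.00.

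Because TPM is scaled per length, each mitochondrial gene was also set against its cytosolic counterpart for the same amino acid within each library. In 17 such ratios, with Fars2 set against each cytosolic subunit and both Ears2 and Pars2 set against Eprs, the mitochondrial mRNA was the more abundant in all 4 libraries for Rars2, Lars2, Yars2 and for Fars2 over Farsa. Rars2 stood at 9.17 and 6.81 times the level of Rars in Ctrl and 10.5 and 10.1 times in AZ20. Yars2 stood at 1.06 and 1.60 times the level of Yars in Ctrl and 2.58 and 2.46 times in AZ20. Hars2 stood at 0.302 and 0.307 of Hars in Ctrl and 0.533 and 0.488 in AZ20. The mean ratio was higher with AZ20 for 14 of the 17, both AZ20 ratios lay above both Ctrl ratios for 10, and they lay below for 1 (Fars2 over Farsa, at 5.36 and 4.79 in Ctrl and 2.82 and 3.07 in AZ20). The ratios share the libraries and some share a denominator, and 5 of them rest on mitochondrial genes that were not tested. Of those, Cars2, Vars2 and Pars2 are among the 10. The denominators are the cytosolic genes already described as mostly lower, so the counts are not a separate result. No share over other pairs of genes was computed, and the ratios are given as a description.

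**Figure D5:**
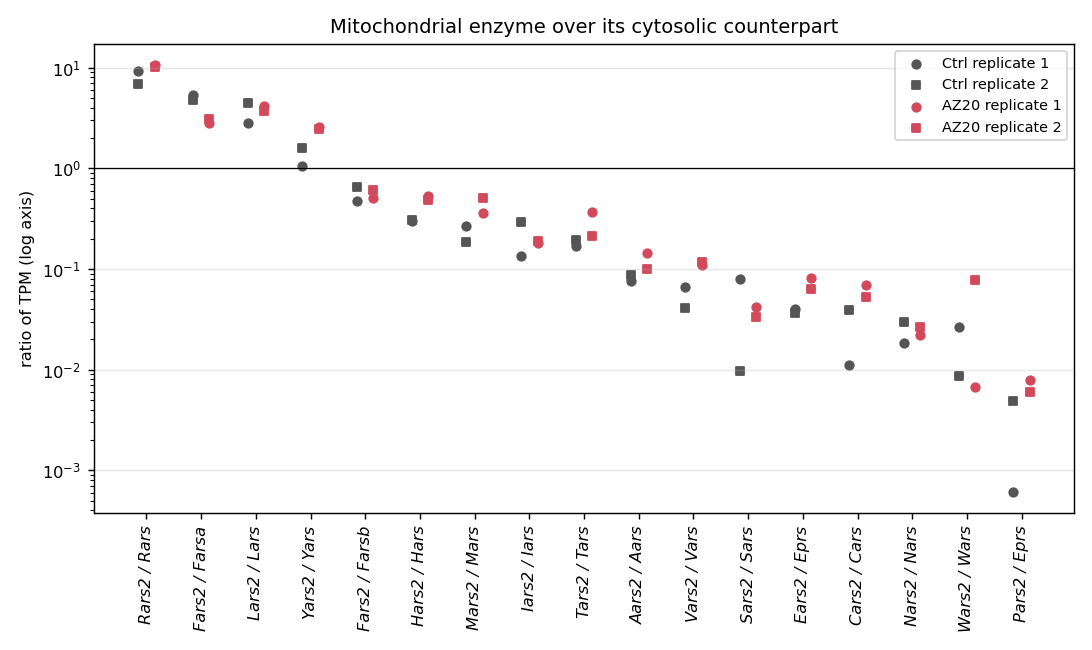
Ratio of the TPM of each mitochondrial synthetase gene to that of its cytosolic counterpart, on a log axis, with Ctrl in grey, AZ20 in red, circles for replicate 1, squares for replicate 2 and a line at a ratio of 1. The ratio is above 1 in all libraries for 4 of 17 pairs, and both AZ20 libraries lie above both Ctrl libraries for 10. No share over other pairs of genes was computed.

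The genes that act beside the synthetases did not include a call either. Among 4 partners that clear mischarged tRNA, the median log2 change was 0.25. Dtd1, a deacylase of D-amino acids, was the lowest at 154.0 and 183.9 TPM in Ctrl and 165.3 and 131.3 TPM in AZ20. Prorsd1, a homologue of a bacterial editing domain, was the highest at 11.3 and 9.90 TPM in Ctrl and 15.6 and 20.4 TPM in AZ20 (log2 change of 0.70, limma adjusted p = 0.395). Of the 3 mitochondrial charging partners measured, with a median of -0.33, the lowest was Qrsl1, a subunit of the amidotransferase that makes mitochondrial glutaminyl-tRNA. It was measured at 23.4 and 25.7 TPM in Ctrl and at 16.3 and 13.4 TPM in AZ20 (log2 change of -0.69, limma adjusted p = 0.341). The highest was Mtfmt, which formylates the initiator methionyl-tRNA of mitochondria, at 12.1 and 15.2 TPM in Ctrl and 17.7 and 15.4 TPM in AZ20 (log2 change of 0.27, limma adjusted p = 0.826).

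The 5 tested cytosolic elongation factors, which take charged tRNA to the ribosome or move it along, had a median log2 change of 0.00 and a narrow range, from -0.08 to 0.14. Eef2 was the lowest at 117.6 and 94.2 TPM in Ctrl and 103.5 and 95.8 TPM in AZ20, and Eef1b2 the highest at 110.1 and 115.4 TPM in Ctrl and 127.2 and 122.2 TPM in AZ20. The 8 tested mitochondrial translation factors had a median of -0.16, from -0.57 (Tsfm, with 5.04 and 16.1 TPM in Ctrl and 4.31 and 7.81 TPM in AZ20) to 0.16 (Mtif2, with 54.2 and 39.7 TPM in Ctrl and 57.6 and 47.0 TPM in AZ20). For 14 tested genes of tRNA processing and export the median was 0.14, from -0.70 (Pop5, with 57.8 and 106.3 TPM in Ctrl and 39.6 and 57.9 TPM in AZ20) to 0.42 (Pop7, with 71.2 and 77.3 TPM in Ctrl and 111.6 and 89.0 TPM in AZ20). For 76 mitochondrial ribosomal protein genes the median was -0.06, with 49 lower and 27 higher. Their lowest was Mrps28, at 122.2 and 144.7 TPM in Ctrl and 102.5 and 85.3 TPM in AZ20 (log2 change of -0.50, limma adjusted p = 0.472). Their highest was Mrpl44, at 10.0 and 9.50 TPM in Ctrl and 20.7 and 15.7 TPM in AZ20 (log2 change of 0.83, limma adjusted p = 0.267). The share of tested genes with no overlap in the lower direction was 60.0% among the cytosolic synthetases, 42.9% in the amino acid response list, 37.5% among mitochondrial translation factors, 33.3% among charging partners, 28.6% for tRNA processing and export and 15.8% among the ribosomal protein genes, against 11.7% of all tested genes. It was 0.0% for scaffolds, editing partners and cytosolic elongation factors. In the higher direction the groups did not overlap for 1 of 3 scaffolds, 2 of 4 editing partners and 1 of 5 cytosolic elongation factors. No overlap in the higher direction was found in 26.4% of all tested genes. Genes with no overlap, lower and higher, numbered 12 and 1 for cytosolic synthetases and 3 and 2 for the amino acid response list. They numbered 3 and 0 for mitochondrial translation factors and 1 and 1 for charging partners. For tRNA processing and export they numbered 4 and 4, and for the ribosomal protein genes 12 and 9. Several of these lists are small, and the differences between them were not tested.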

How the data were processed

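RNA-seq reads of 4 libraries were processed by the authors. Per the methods and the submitters' processing notes, reads of 150 bases were trimmed with Trimmomatic 0.39, aligned uniquely to GRCm38 with STAR 2.5.4b and counted on the refGene annotation with featureCounts 2.0.1, and the authors deposited TPM computed from these counts. Strand setting was not given in the sources used here. In the table, 92 blank rows were left out.

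Reads per gene were recovered from the TPM steps, since every library divides by an equal length for a given gene. Whole reads, within 0.005, were found for each of 16857 genes with a value above 0, and 738 were raised by a whole factor because the implied length was under the coding length (among the members, Cars). Reads of other genes, printed read numbers included, may still be under by a whole factor: 2728 recovered lengths equalled that of an annotated transcript. The recovered reads were used for depth and for limma-voom only.

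Genes with a mean TPM above 1 in either group were tested with limma 3.58.1 (R 4.3.3) on log2(TPM + 1) with an intensity trend and Benjamini-Hochberg adjustment, since the count model of the methods needs raw reads. Libraries of the same number were taken to come from the same divided cell suspension, and their deviations from the group means correlated (0.229). The number was used as a block in an alternative. The scripts were tested on simulated data. Positions were taken from GENCODE vM21 and promoters from RefSeq. Per-library values were given for the 4 lowest and 2 highest tested genes of each compartment, the most and least abundant, members at unadjusted p under 0.05, Gars and Kars, and the extremes of related lists. Other named members were chosen after their values were seen, and members and lists were chosen with earlier results of these data known. Alternatives were other pseudocounts (0.1 and 0.01), no filter, a filter of 5 TPM, quantile normalization, median-of-ratios scaling, no trend, the block, voom with and without it, and leaving out each library. Other values were computed with Python 3.11.15. One gene of a related list is not reported here.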

Additional observations from a re-analysis of the deposited data

How the results depend on the processing

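No synthetase gene became a call under any of the 14 alternatives. The replicate block, with libraries paired by replicate number, gave 424 genes called higher and 23 called lower over all genes, against 235 and 5. Genes called lower numbered 1 without the filter, 3 with voom and 10 with voom and the block, and leaving out a library gave 0 to 200 called higher and 0 to 1 lower. Cytosolic genes at adjusted p under 0.05 numbered 0, and 3 with voom and the block, the only synthetase calls of that kind that the block changed. Cytosolic genes lower at unadjusted p under 0.05 numbered 5, and 4 without the trend. They numbered 6 with median-of-ratios scaling, quantile normalization or voom and the block, and 7 with voom. The fits that left out a library are described above. The single higher one, Farsa, became 0 under median-of-ratios scaling, quantile normalization, no filter, no trend, both other pseudocounts and both voom fits, and 0 to 1 on leaving out a library. Mitochondrial genes at that p went from 0 to between 0 and 1, with 1 only without Ctrl replicate 2.

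The cytosolic median stayed between -0.40 and -0.20 and 15 to 18 of the 20 genes were lower, while the mitochondrial median ranged from -0.13 to 0.19. Quantile normalization moved the median of all genes by -0.14. Of 430 single-gene values 23 changed sign. Kars was -0.0641 with median-of-ratios scaling, -0.0085 with quantile normalization, -0.0685 with voom and -0.0687 with voom and the block. Mars2 was -0.0848 with quantile normalization, and Rars2 was -0.0046 with voom and -0.0024 with the block added. On leaving out a library the log2 change ranged from -0.60 to 0.13 for Cars, -0.33 to 0.0032 for Farsb, -0.0612 to 0.10 for Kars, -0.33 to 0.0462 for Lars, -0.0767 to 0.44 for Qars, -0.32 to 0.0319 for Fars2, -0.63 to 0.0391 for Iars2, -0.21 to 0.21 for Lars2, -0.15 to 0.47 for Mars2, -0.39 to 0.0048 for Nars2, -0.0222 to 0.19 for Rars2, -0.13 to 0.13 for Tars2 and -0.24 to 0.80 for Yars2. The cause was not tested. The 5 mitochondrial genes under the filter had at most 45 reads in any library, where counting error is widest.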
